A study of Mus musculus with 12 samples.

Results

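The kidneys of cisplatin-treated mice that received the higher dose of extracellular vesicles were compared with those of cisplatin-treated mice that received only the carrier. The comparison rests on 6 of the 12 RNA sequencing libraries of the study, chosen by their labelled treatment and not by any measured value. All mice were wild-type male C57BL/6, and all 6 kidneys had been exposed to cisplatin at 9 mg/kg, given intraperitoneally each week for 5 cycles. In the PBS group (3 libraries) the mice then received phosphate-buffered saline intravenously, 5 doses at intervals of 3 days. In the EV400 group (3 libraries) they received on the same schedule 400 µg per dose of iMSC-EVs, extracellular vesicles from a cell source that the labels abbreviate as iMSC. Kidneys were collected 3 days after the last dose. The other 6 libraries, 3 from mice given 200 µg of the vesicles on that schedule (EV200) and 3 from normal mice given neither cisplatin nor vesicles, give side-by-side values, and the EV200 libraries also the test between doses. All 12 libraries entered 1 fit, so the other 6 also set the estimate of spread behind each p-value of EV400 against PBS. The question was which gene programs were lower or higher with the higher dose, and which of these differences held in all 3 libraries. Replicates are labelled biological replicates and no label ties each to its own mouse, so p-values measure the spread between these samples, which may be technical. The labels give 1 batch and no hour of collection.

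Cisplatin is taken up by cells of the proximal tubule, the segment that reabsorbs most of the filtered load, and it crosslinks DNA there. Repeated injury leaves tubule cells that express injury and failed-repair genes such as Havcr1 (KIM-1), while macrophages accumulate and fibroblasts deposit collagen between the tubules. Extracellular vesicles are membrane-bound particles that cells release. The kidney also keeps its own circadian clock, a feedback loop in which Arntl (BMAL1) with Clock or Npas2 drives the genes of its own repressors, the Per and Cry families.

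Total counts ranged from 46.6 M to 62.1 M in the PBS group and from 47.8 M to 48.4 M in the EV400 group. Within both groups some libraries stood apart. On the first principal component, which carried 43.4% of the variance of log2 CPM (counts scaled to the library total and TMM factor), PBS 1, PBS 2 and PBS 3 lay at 15.4, 83.4 and 42.8, and EV400 1, EV400 2 and EV400 3 at 1.06, 7.93 and -52.1. PBS 3 held adipocyte transcripts. Its Adipoq level, the gene of adiponectin, reached 7.67 CPM, whereas the 11 remaining libraries of the study had 0 to 0.124 CPM, and the summed level of the 9 adipose markers was 190 CPM in PBS 3 against 50.5 to 114 CPM elsewhere. Defining markers of adrenal cortex (Cyp11b1) and skeletal muscle (Ckm) were at 0 in all 3 EV400 libraries, with 3 counts of Cyp11b1 in PBS 3. Other members of both lists held a few counts. The summed adrenal level was 1.14 to 1.55 CPM in EV400 and 1.18 to 1.36 CPM in PBS. The summed muscle level was 0.29 to 0.60 CPM in EV400 and 0.26 to 0.47 CPM in PBS. Kidney identity was plain in every library: Umod, the uromodulin gene of the thick ascending limb, lay between 2195 and 2825 CPM in the 6 libraries. In whole-kidney RNA, fewer cells of a type and less RNA per cell cannot be told apart, and this holds for every cell type marker below.

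Of 18730 genes tested, 15 (0.0801%) passed at an adjusted p under 0.05 in edgeR's quasi-likelihood test, 9 of them higher (0.0481%) and 6 lower (0.032%) in EV400 than in PBS. In all 15 the 3 EV400 libraries lay wholly above or below the 3 PBS libraries. Without adjustment, 4403 genes (23.5%) had a p under 0.05. Of the 15, 5 belong to the circadian clock, namely Arntl, Npas2, Cry2, Per3 and Ciart. The remaining genes are Ren1, Slc16a1, Fmo2, Nat8f5, Trdn, Ypel2, Banp, the long noncoding RNA gene Gm10384, and the gene model pair Aak1 and Gm38495. The set of calls rested on nearly every library: leaving out PBS 1, PBS 2, EV400 1, EV400 2 or EV400 3 left 1, 1, 0, 0 and 1 called genes, the single calls being Aak1, Aak1 and Gm38495, whereas without PBS 3, the library with adipocyte transcripts, 26 genes were called. A fit of the 6 PBS and EV400 libraries alone called 2 genes, 1 of them among the 15.

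**Figure D1:**
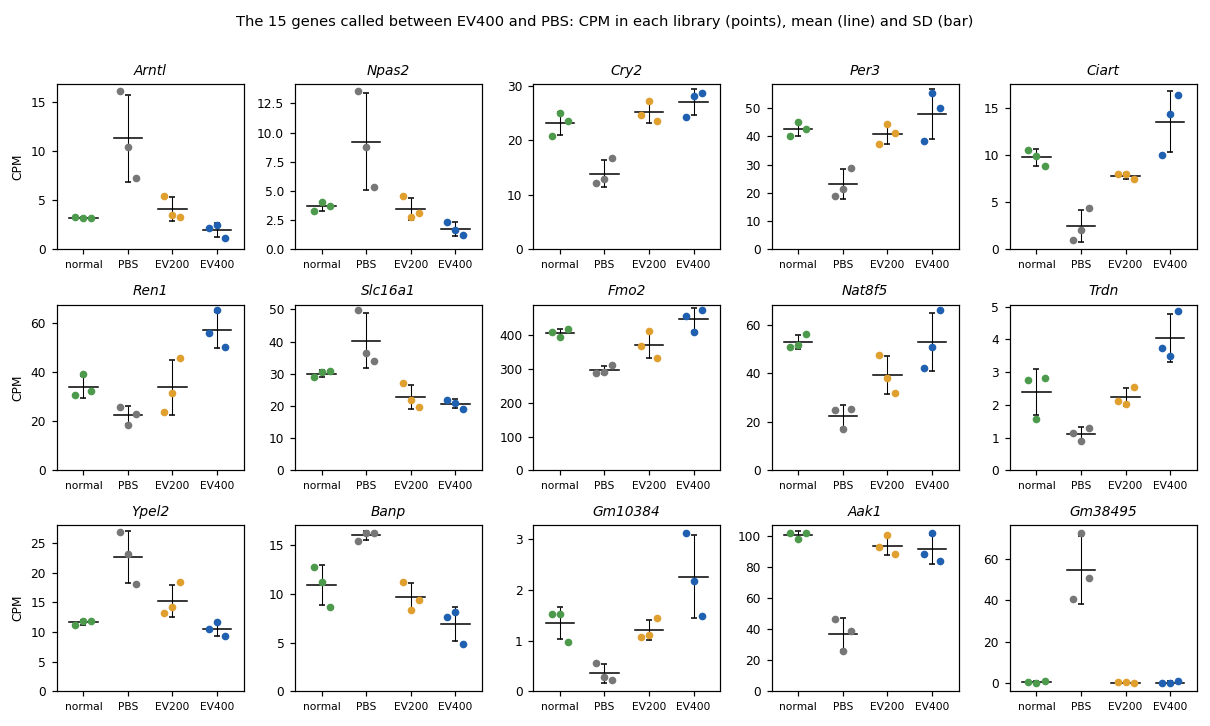
Level in CPM (vertical axis, from 0 except in the last panel, whose axis starts just below 0) of the 15 called genes in each library of the normal, PBS, EV200 and EV400 groups; points are libraries, horizontal lines group means and bars SD (n = 3). In every panel the PBS and EV400 points do not overlap, and for Arntl the PBS points lie at 7.33 to 16.2 CPM against 1.16 to 2.53 CPM in EV400.

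Arntl, the positive arm of the clock (chr7:113178471-113314126, GRCm38.p6), was measured at 16.2, 10.5 and 7.33 CPM in PBS 1 to 3 and at 2.15, 2.53 and 1.16 CPM in EV400 1 to 3. It fell by 2.53 on the log2 scale (SE 0.33, adjusted p = 0.0336), a level 5.79-fold lower. Npas2 (chr1:39193702-39363240), a partner of Arntl that can take the place of Clock, was at 13.6, 8.77 and 5.31 CPM in PBS and at 2.36, 1.68 and 1.21 CPM in EV400. It fell by 2.39 (SE 0.34, adjusted p = 0.0371). PBS 3 was the nearest of the PBS libraries to EV400 in both genes. Clock was lower in each EV400 library (49.5, 49.7 and 43.9 CPM) than in each PBS library (67.6, 75.9 and 59.5 CPM), with a log2 difference of -0.50 that did not pass (adjusted p = 0.0737). Rora, which activates Arntl, overlapped between the groups (log2 difference 0.30, adjusted p = 0.155).

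The repressor arm went the other way. Cry2 (chr2:92403646-92434085), a cryptochrome that inhibits the Arntl complex, was at 12.1, 12.9 and 16.7 CPM in PBS and at 24.2, 28.2 and 28.7 CPM in EV400. It rose by 0.96 on the log2 scale (SE 0.13, adjusted p = 0.0336). Per3 (chr4:150997018-151044707), a period gene, was at 18.9, 21.5 and 28.9 CPM in PBS and at 38.2, 55.4 and 50.03 CPM in EV400. It rose by 1.05 (SE 0.16, adjusted p = 0.0493). Ciart (chr3:95878500-95882257), which encodes CHRONO, a further repressor of the same complex, was at 1.02, 2.02 and 4.34 CPM in PBS against 10.01, 14.3 and 16.3 CPM in EV400, a rise of 2.45 (SE 0.37, adjusted p = 0.0493). Every EV400 library stood above every PBS library in these 3 genes. Per2 and Nr1d2 (REV-ERB beta) were also higher without overlap, with log2 differences of 1.14 and 0.52 (adjusted p = 0.0737 and 0.118). The remaining 5 repressors, Per1, Cry1, Nr1d1, Bhlhe40 and Bhlhe41, overlapped. Nr1d1 (REV-ERB alpha) had a log2 difference of -0.15 (SE 0.17), which ranged from -0.29 to 0.048 with 1 library left out. Its side was therefore not settled, and a rise was not seen in every repressor.

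The output factors, which carry the rhythm to other genes through D-box elements, followed the same split without passing the test. Dbp was at 15.1, 26.2 and 52.6 CPM in PBS and at 102, 107 and 137 CPM in EV400, a log2 difference of 1.88 (SE 0.33, adjusted p = 0.0714). Tef had a difference of 0.84 (SE 0.15, adjusted p = 0.0714) and Hlf of 0.62 (adjusted p = 0.123), both without overlap. Nfil3, which binds the same element as a repressor, was at 2.32, 2.98 and 2.13 CPM in EV400 and overlapped PBS. Of 6 further rhythmic genes, Wee1, Nampt, Usp2 and Por were higher without overlap (log2 differences 0.44 to 0.78). Across the 25 clock genes, all of which were tested, 13 lay wholly higher and 3 wholly lower in EV400, against 12.2% higher and 13.8% lower over all genes tested. The list's median log2 difference was 0.51, against -0.02 over all genes.

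**Figure D2:**
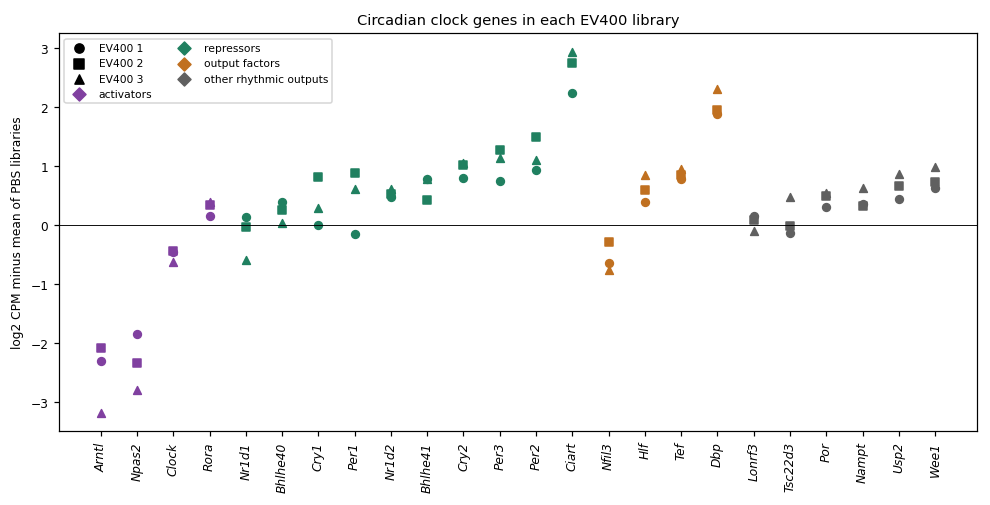
Each of 24 circadian clock genes (horizontal axis, grouped by role) in EV400 1, 2 and 3 as log2 CPM minus the mean of the PBS libraries (vertical axis); circles, squares and triangles are the 3 libraries and colours the roles. Arntl and Npas2 lie between -3.17 and -1.85 in all 3 libraries, and Ciart between 2.25 and 2.95.

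In these clock genes the PBS libraries were the ones that lay apart. Arntl averaged 3.24 ± 0.0475 CPM in normal kidney and 4.11 ± 1.21 CPM in EV200 (SD, n = 3), against 11.3 ± 4.47 CPM in PBS and 1.95 ± 0.707 CPM in EV400. Dbp averaged 87.2 ± 2.90 CPM in normal kidney, 83.9 ± 9.11 CPM in EV200, 31.3 ± 19.3 CPM in PBS and 115 ± 18.8 CPM in EV400. The EV400 mean thus lay past the normal mean, away from PBS, in both genes. With PBS 3 left out, the difference between EV400 and PBS in Ciart was 3.13 and in Arntl -2.77 on the log2 scale, at least as large as with it. Leaving out any other library kept the direction of all 5 called clock genes, with adjusted p between 0.0591 and 0.19.

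The promoters of the 2 called repressors that hold clock motifs are printed because these genes moved together and against Arntl. Each sequence covers the 250 bases before the start set for that promoter in a separate promoter collection (GRCm38.p6, minus strand). It lies at chr4:151044666-151044915 for Per3 and chr3:95882229-95882478 for Ciart. These starts lie inside the RefSeq gene spans given above, so the last bases of each stretch fall within the gene span. Distances below are counted from the starts of that collection. Capitals mark the D-box TTATGTAA in Per3 and the E-box CACGTG in Ciart, the element that Arntl complexes are known to bind.
Per3: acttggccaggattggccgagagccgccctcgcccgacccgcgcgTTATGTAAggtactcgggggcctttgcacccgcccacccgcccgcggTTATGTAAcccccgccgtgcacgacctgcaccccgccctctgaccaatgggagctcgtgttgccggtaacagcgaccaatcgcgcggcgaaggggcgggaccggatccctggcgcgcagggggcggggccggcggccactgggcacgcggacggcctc
Ciart: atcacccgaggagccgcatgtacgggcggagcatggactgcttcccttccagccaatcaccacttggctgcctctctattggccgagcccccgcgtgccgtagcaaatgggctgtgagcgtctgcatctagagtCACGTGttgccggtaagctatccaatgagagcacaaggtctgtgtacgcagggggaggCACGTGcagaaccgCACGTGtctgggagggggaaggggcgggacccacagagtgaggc
The Ciart promoter held 3 E-boxes, 116, 58 and 44 bases before the start, and the Per3 promoter held 2 D-boxes, 205 and 158 bases before it. Both strands were searched in 300-base promoters (250 bases before to 50 after each start) for CACGTG, TTATGTAA and the ROR and REV-ERB half-sites AGGTCA and GGGTCA, none of which overlaps another. Of 32851 such promoters in the table, 7.15% held CACGTG, 0.938% TTATGTAA, 16.3% AGGTCA and 13.7% GGGTCA. Counted by gene, with any promoter of a gene sufficing, the shares over 27025 genes were 8.09%, 1.11%, 18.1% and 15.3%. Among the 21 clock genes with a promoter in the table, 6 held CACGTG, 1 TTATGTAA, 6 AGGTCA and 2 GGGTCA. Arntl has 2 promoters in the table, of which 1 held none of the 4 motifs and the other a single AGGTCA, 31 bases after the start. Both of them lie inside the RefSeq span given for Arntl above and not at its outer end. A match describes letters and is no evidence of binding.

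Ren1, the gene of renin, the enzyme that opens the angiotensin cascade, was called higher. It was at 26.04, 18.6 and 23.0 CPM in PBS and at 56.2, 65.4 and 50.6 CPM in EV400, so the lowest EV400 library lay above the highest PBS library. The rise was 1.35 on the log2 scale (SE 0.21, adjusted p = 0.0493), or 2.55-fold (chr1:133350674-133360320). Normal kidney averaged 34.2 ± 4.54 CPM and EV200 33.8 ± 11.3 CPM (SD, n = 3), both between PBS and EV400. In the renin-angiotensin list, whose median log2 difference was 0.12, 3 of 8 genes, Ren1 included, were wholly higher and 5 overlapped. Over all genes tested 12.2% were wholly higher. Enpep, which encodes an angiotensin-cleaving peptidase, was among the 3, with a small log2 difference of 0.17 (adjusted p = 0.198). Leaving out any 1 library took the adjusted p of Ren1 to 0.0736 to 0.182 with a difference of 1.23 to 1.47.

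Slc16a1, Fmo2 and Nat8f5 act in metabolism or transport. Slc16a1 (MCT1, a lactate and ketone transporter) was at 49.95, 36.6 and 34.04 CPM in PBS and at 22.0, 21.0 and 19.1 CPM in EV400, and it fell by 0.96 (SE 0.15, adjusted p = 0.0493). Fmo2, a flavin monooxygenase, was at 287, 292 and 312 CPM in PBS and at 456, 409 and 476 CPM in EV400, a rise of 0.59 (SE 0.09, adjusted p = 0.0493). Nat8f5, of an N-acetyltransferase family expressed in kidney, was at 25.0, 16.9 and 25.2 CPM in PBS and at 42.3, 50.9 and 66.0 CPM in EV400. It rose by 1.25 (SE 0.19, adjusted p = 0.0493). The Nat8f genes are near-identical neighbours among which reads can be split, so this value is uncertain. Nat8f6 was next to the threshold, with a difference of 1.23 (adjusted p = 0.057).

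The further calls were of low or moderate level. Trdn, known as a calcium-release protein of muscle, was at 1.14, 0.895 and 1.31 CPM in PBS and at 3.74, 3.50 and 4.87 CPM in EV400, a rise of 1.86 (SE 0.25, adjusted p = 0.0339). Ypel2 fell by 1.11 (SE 0.16, adjusted p = 0.0371), from 26.9, 23.1 and 18.1 CPM to 10.5, 11.7 and 9.39 CPM. Banp, a DNA-binding nuclear protein, fell by 1.22 (SE 0.19, adjusted p = 0.0493), from 15.5, 16.3 and 16.3 CPM to 7.66, 8.10 and 4.87 CPM. Both were lower in every EV400 library, and the PBS values of Banp lay close together. Gm10384 rose by 2.71 (SE 0.39, adjusted p = 0.0371), from 0.559, 0.274 and 0.218 CPM to 3.13, 2.18 and 1.48 CPM.

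Aak1, a kinase of clathrin-mediated endocytosis, and Gm38495 formed a pair whose counts traded places. RefSeq lists them as 1 gene. Aak1 was at 46.6, 26.02 and 38.6 CPM in PBS and at 88.5, 102 and 83.7 CPM in EV400. Gm38495 was at 40.6, 72.4 and 50.8 CPM in PBS, and had 2, 2 and 40 counts in EV400. In normal kidney Gm38495 was at 0.359, 0 and 0.893 CPM, and in EV200 at 0.541, 0.425 and 0 CPM. High counts of Gm38495 were thus confined to PBS. Aak1 was at 97.9 to 102 CPM in normal kidney and 88.1 to 100 CPM in EV200, where Gm38495 was near 0. Their sum was 87.2, 98.4 and 89.4 CPM in PBS and 88.6, 102 and 84.6 CPM in EV400, so it overlapped. When the counts of both were summed, the difference of the sum was 0.00 on the log2 scale (adjusted p = 0.997) and the number of called genes fell to 6, namely Arntl, Npas2, Cry2, Trdn, Ypel2 and Gm10384. The summed level thus showed no call for the gene as a whole.

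The largest differences among genes that did not pass describe the same kidneys without a call. Higher in all 3 EV400 libraries were Cish, a feedback inhibitor of cytokine signalling (PBS 17.3, 12.4 and 13.1 CPM, EV400 50.6, 44.8 and 42.8 CPM, log2 difference 1.69, adjusted p = 0.123), and Irs2, an adaptor of the insulin receptor (PBS 17.0, 15.6 and 18.2 CPM, EV400 44.0, 36.3 and 68.1 CPM, difference 1.55, adjusted p = 0.0737). Ces1g, Angptl7 and Igfbp1 followed, with differences of 1.502, 1.32 and 1.32. Lower in all 3 were matrix genes, with Tnc (tenascin C), Dpt (dermatopontin), Smoc2 and Lum (lumican) at -2.34, -2.38, -1.89 and -1.88. Ankrd1, a target of the YAP pathway, had a difference of -2.42, with 2.78, 9.86 and 4.30 CPM in PBS and 1.15, 1.31 and 0.719 CPM in EV400. Gsdmc2 and the kappa light chain segment Igkv10-96, at -3.60 and -1.95, have near-identical copies and are uncertain. Pakap, at -4.19, was at 0.953, 19.3 and 13.5 CPM in PBS and at 0.939, 0 and 0.927 CPM in EV400. PBS 1 thus lay barely above EV400 1, and PBS 2 and PBS 3 set the difference. Normal kidney spanned 1.27 to 13.1 CPM. Pakap overlaps the gene models Akap2 and Palm2, and Akap2 itself was at 135 to 143 CPM in PBS and 119 to 143 CPM in EV400. These 8 lower genes had adjusted p from 0.127 to 0.156.

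A panel of 12 injury and fibrosis genes gave no call, and all 12 had a log2 difference below 0. In 7 of the 12 the EV400 libraries lay wholly below the PBS libraries, beside 13.8% of all genes tested, and in 7 the unadjusted p was under 0.05, beside 12.6% of all genes in that direction. Havcr1, the tubular injury marker KIM-1, was at 7.27, 16.1 and 5.36 CPM in PBS and at 1.61, 3.75 and 1.32 CPM in EV400. Its log2 difference was -2.10 (SE 0.85, adjusted p = 0.185). Lcn2 (NGAL, released by stressed tubules) was at 7.46, 22.6 and 7.02 CPM in PBS and at 4.03, 4.95 and 0.603 CPM in EV400, a difference of -1.95 (SE 0.87, adjusted p = 0.208). In both genes PBS 2 was far above PBS 1 and PBS 3. The collagen gene Col1a1 was at 24.7, 74.3 and 39.8 CPM in PBS and at 14.3, 21.6 and 5.17 CPM in EV400, a difference of -1.76 (SE 0.58, adjusted p = 0.158). Col3a1, Fn1 (fibronectin), Cdkn1a (p21) and Ccl2 (a monocyte chemokine) also did not overlap, with differences of -1.73, -1.30, -1.17 and -1.45. Krt20, Vcam1, Acta2 (smooth muscle actin) and Tgfb1 overlapped, with differences from -1.47 to -0.53, and Umod was at -0.02 (SE 0.11).

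**Figure D3:**
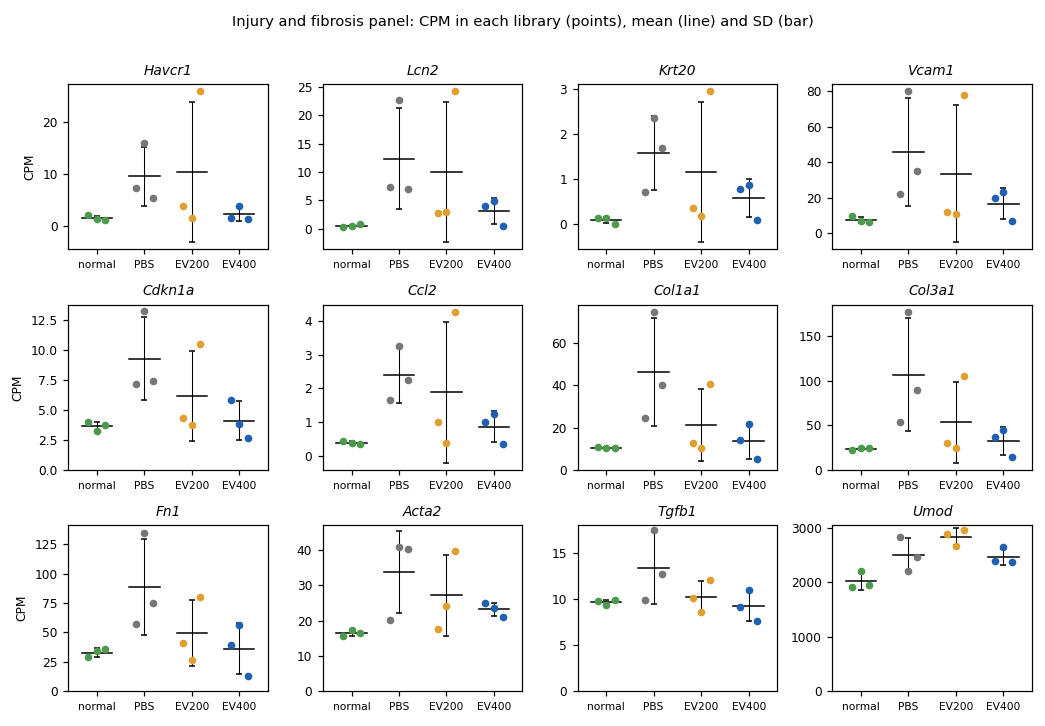
Level in CPM (vertical axis) of 12 injury and fibrosis genes in each library of the 4 groups; points are libraries, lines means and bars SD (n = 3), and some axes start below 0 to hold the SD bars. Havcr1, Lcn2, Col1a1, Col3a1, Fn1, Cdkn1a and Ccl2 have no overlap between PBS and EV400, none of the 12 passed the test, and EV200 has 1 library far above the other 2 in several panels.

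Over all genes, 2588 (13.8%) lay wholly lower and 2284 (12.2%) wholly higher in EV400 than in PBS. Below the PBS mean in each of the 3 EV400 libraries were 6301 genes (33.6%), and above it 5787 (30.9%). These shares are the yardstick for the 43 gene lists, some of them described above, of whose 650 genes 625 were tested. Only 6 list genes were called, 5 clock genes and Ren1. What follows is therefore given as levels, overlap and medians, and no member of the lists described below passed.

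**Figure D4:**
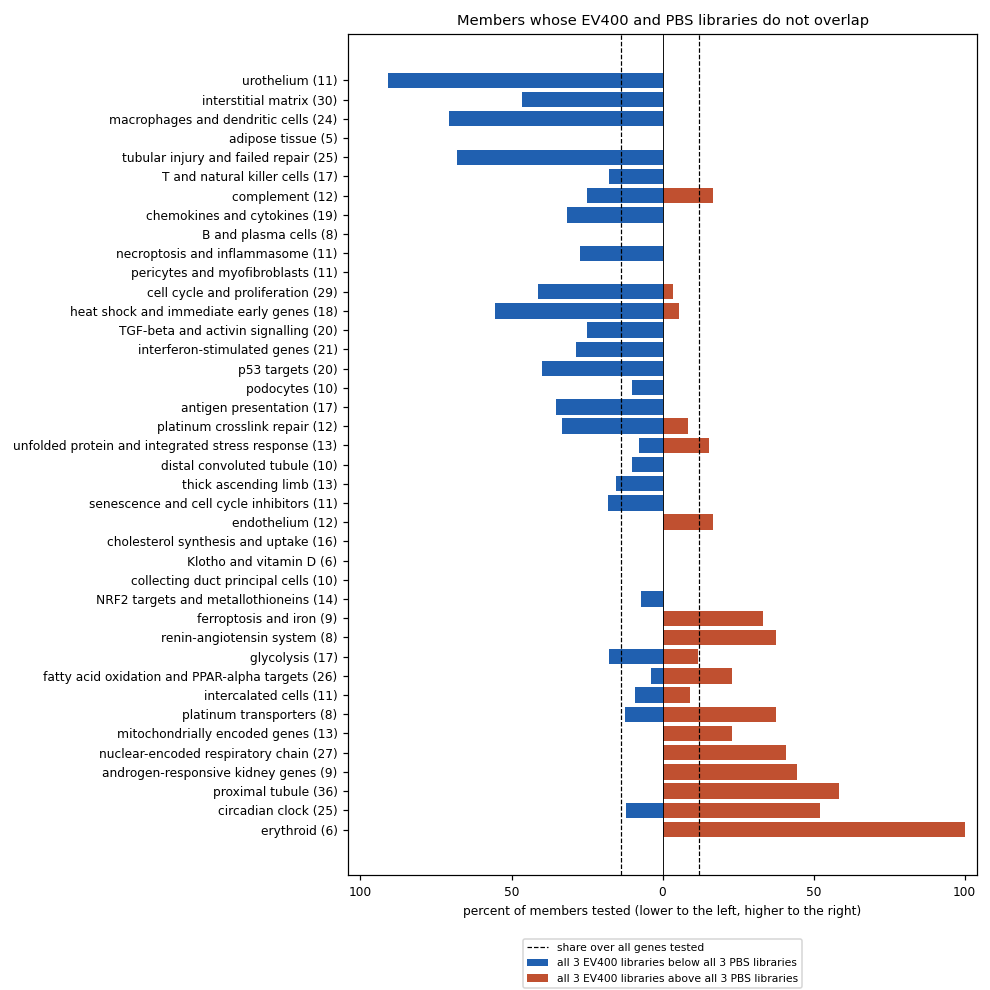
Percent of the tested members of each gene list with at least 5 tested (rows, number tested in brackets) whose 3 EV400 libraries all lie below (bars to the left) or all above (bars to the right) the 3 PBS libraries; dashed lines mark 13.8% and 12.2%, the shares over all genes tested. Urothelium, macrophage and tubular injury lists reach furthest left, and erythroid, proximal tubule and clock lists furthest right.

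The interstitial matrix list, 30 genes of collagens, glycoproteins and matrix enzymes, was lower in EV400, with 14 members wholly lower and none higher and a median log2 difference of -1.19. By role, 4 of 10 structural collagens, 7 of 13 glycoproteins and proteoglycans, and 3 of 7 crosslinking and turnover genes were wholly lower, with medians of -1.01, -1.23 and -1.29. Postn (periostin, a matricellular protein of fibrosis) was at 2.13, 5.16 and 3.80 CPM in PBS and at 1.57, 1.08 and 0.811 CPM in EV400, a difference of -1.68 (SE 0.44, adjusted p = 0.128). Mmp3 (stromelysin) was at 0.601, 3.28 and 1.46 CPM in PBS and at 0.2504, 0.187 and 0 CPM in EV400. Col15a1, a basement membrane collagen, had a difference of -1.15 but overlapped, since EV400 2 at 30.01 CPM lay just above PBS 1 at 29.8 CPM. The size differed among libraries. Relative to the PBS mean the list's median was -0.90, -0.59 and -1.82 in EV400 1 to 3, while PBS 1 to 3 themselves ranged from -0.66 to 0.62. EV400 2 therefore lay within the PBS range by this measure. Without PBS 2 the median difference was -0.79, and without EV400 3 it was -0.87.

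Upstream of matrix, the 20 tested genes of the TGF-beta and activin list split by role. Among the ligands Inhba, the activin A subunit, was wholly lower (PBS 0.684, 3.16 and 1.06 CPM, EV400 0.396, 0.290 and 0.0927 CPM, log2 difference -2.64, adjusted p = 0.134), and the other 5 overlapped. The 7 receptors and transducers had a median of -0.04 and none was free of overlap. Of 7 targets, 4 were wholly lower, among them Ltbp1 and Ltbp3, which hold latent TGF-beta in the matrix (differences -0.51 and -0.58). Markers of pericytes and myofibroblasts had a median of -0.54 over 11 genes (-0.36 without PBS 2), and every one overlapped. Pdgfra, for instance, was at 25.9, 87.6 and 42.7 CPM in PBS and at 30.3, 35.3 and 16.2 CPM in EV400.

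Tubular injury and failed-repair genes were lower more evenly. Of 25 tested of 26, 17 were wholly lower and none higher, with a median of -0.84, and EV400 1 to 3 lay at -0.61, -0.67 and -1.23, all below the lowest PBS library at -0.36. Itgb6, an integrin chain that activates TGF-beta on epithelium, was at 135, 116 and 101 CPM in PBS and at 81.8, 68.7 and 62.4 CPM in EV400. Its difference of -0.73 (SE 0.13, adjusted p = 0.0737) came nearest to the threshold within the list. Hbegf, an epidermal growth factor family ligand, was at 17.96, 18.04 and 15.6 CPM in PBS and at 12.4, 11.6 and 12.8 CPM in EV400 (difference -0.49, adjusted p = 0.118). Prom1, a marker of injured and progenitor-like tubule cells, was at 87.5, 136 and 86.9 CPM in PBS and at 66.4, 64.0 and 55.2 CPM in EV400 (difference -0.74, adjusted p = 0.133). The keratin gene Krt8, chosen after its values were seen, was at 96.4, 97.1 and 98.3 CPM in PBS and at 95.2, 99.9 and 105.2 CPM in EV400, so that not every injury gene was lower. Leaving out PBS 2 or EV400 3 gave list medians of -0.60 and -0.68.

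Genes of the healthy proximal tubule were higher by a small amount. Of 36 genes, 21 were wholly higher and none lower, 33 lay above the PBS mean in each EV400 library, and the median log2 difference was 0.34. Pck1, the gluconeogenic enzyme, was at 642, 638 and 909 CPM in PBS and at 956, 1126 and 1468 CPM in EV400, a difference of 0.70 (SE 0.21, adjusted p = 0.147). Cyp2e1, a cytochrome P450, was at 1643, 1182 and 1485 CPM in PBS and at 1919, 1813 and 2330 CPM in EV400, a difference of 0.49 (adjusted p = 0.134). Slc16a9, a carnitine and creatine transporter, had a difference of 0.47 (adjusted p = 0.133). By role, 10 of 16 transporters, 10 of 15 enzymes and 1 of 3 endocytic receptors were wholly higher, and the transcription factor gene Hnf4a overlapped. EV400 1 to 3 lay at 0.32, 0.31 and 0.44 above the PBS mean, with -0.34 in PBS 2, 0.15 in PBS 1 and 0.17 in PBS 3. Without PBS 2 the list's median was 0.20 and without PBS 1 it was 0.42, so the size depended on which PBS library was used.

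Genes of oxidative metabolism were mostly higher, by small amounts that depended on the library. The 27 nuclear-encoded respiratory chain genes had a median of 0.29, with 11 wholly higher, none lower and 26 above the PBS mean in each library. Without PBS 2 that median was 0.15, and without PBS 1 it was 0.42. Ndufa4, a cytochrome oxidase-associated subunit, was at 307, 194 and 273 CPM in PBS and at 330, 308 and 408 CPM in EV400 (difference 0.44, adjusted p = 0.162), and PBS 2 was again the lowest. The 13 mitochondrially encoded genes had a median of 0.27 that was 0.60 in EV400 3 and 0.13 and 0.08 in EV400 1 and 2. Without EV400 3 it was 0.11. In the 26 genes of fatty acid oxidation and PPAR-alpha targets 6 were wholly higher and 1 wholly lower, and the median of 0.18 was 0.097 without EV400 3 and 0.10 without PBS 2. The wholly lower gene was Ppargc1a, a coactivator of mitochondrial genes, at -0.18 (chosen after its values were seen). Among the higher were Cpt1a, the entry step of mitochondrial oxidation (PBS 445, 434 and 561 CPM, EV400 638, 618 and 662 CPM, difference 0.41, adjusted p = 0.128), and the regulator Ppara (difference 0.55, adjusted p = 0.137). In the 17 glycolysis genes 2 were wholly higher and 3 wholly lower. Pfkp, the platelet-type phosphofructokinase, was the lower gene with the smallest p, at 50.9, 60.1 and 44.4 CPM in PBS and 34.4, 40.4 and 31.7 CPM in EV400.

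Male mouse kidney expresses a set of androgen-responsive genes in the proximal tubule. Of 9 tested, 4 were wholly higher, with a median of 0.31 (0.20 without EV400 3). Srd5a2, the steroid reductase, was at 25.8, 23.4 and 21.9 CPM in PBS and at 27.9, 38.1 and 38.0 CPM in EV400, and averaged 57.3 ± 9.07 CPM in normal kidney (SD, n = 3), above EV400. Of 8 platinum transporters, 3 were wholly higher and 1 wholly lower, and the list median of 0.20 was 0.089 without PBS 2. The efflux pump gene Abcb1a (PBS 5.51, 6.38 and 7.47 CPM, EV400 8.55, 9.87 and 9.34 CPM, difference 0.52, adjusted p = 0.123) and the copper and platinum importer Slc31a1 (difference 0.27) were among the higher genes. The wholly lower gene was Slc31a2, a relative of that importer, with a difference of -0.25 (chosen after its values were seen).

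Macrophage and dendritic cell markers were lower in each EV400 library. Of 24 genes, 17 were wholly lower and all 24 lay below the PBS mean in each library, with a median of -1.10. C1qb, a complement subunit made by tissue macrophages, was at 25.1, 46.9 and 31.3 CPM in PBS and at 19.3, 19.0 and 10.9 CPM in EV400, a difference of -1.07 (SE 0.37, adjusted p = 0.161). Ms4a7 was at 4.29, 9.30 and 5.56 CPM in PBS and at 3.30, 2.55 and 1.41 CPM in EV400 (difference -1.40, adjusted p = 0.169). Csf1r, the receptor for the macrophage growth factor, differed by -0.35. The summed level of the list was 490, 1038 and 651 CPM in PBS 1 to 3 and 425, 420 and 179 CPM in EV400 1 to 3. EV400 3 was lowest, below each of the normal libraries at 190 to 237 CPM. Without EV400 3 or without PBS 2 the list's median was -0.75.

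Other immune lists were less uniform. Among chemokines and cytokines 6 of 19 tested of 20 were wholly lower, including Csf1, which maintains macrophages (PBS 11.6, 22.9 and 14.3 CPM, EV400 9.16, 8.75 and 7.51 CPM, difference -0.94, adjusted p = 0.160), and the chemokine genes Ccl12 and Cxcl1 at under 3 CPM. In the MHC class II role 4 of 7 genes were wholly lower, with Cd74, the invariant chain, at 250, 445 and 307 CPM in PBS and at 192, 219 and 136 CPM in EV400 (difference -0.88, adjusted p = 0.189). Class I and immunoproteasome genes had a median of -0.15. Complement was divided: C5ar1, a receptor on myeloid cells, was wholly lower (difference -1.36), whereas Cfb and C2, which are also made by tubule cells, were wholly higher (differences 0.43 and 0.43). Interferon-stimulated genes had a median of -0.34 with 6 of 21 wholly lower, Oas1a at -0.88 among them. Relative to the PBS mean, the interferon list's median in EV400 2 was -0.18, within the PBS range, since PBS 1 was at -0.25. The complement list was alike, with EV400 2 at -0.44 and PBS 1 at -0.51. T and natural killer cell markers gave 3 of 17 wholly lower, and B and plasma cell markers 0 of 8. Ighm, the IgM heavy chain, was at 18.1, 24.7 and 103 CPM in PBS and at 15.4, 22.6 and 5.45 CPM in EV400, so PBS 3 alone set the PBS mean. Of 8 neutrophil markers only 4 were tested. The 11 necroptosis and inflammasome genes had a median of -0.58, with 3 wholly lower and 0 wholly higher. Without PBS 2 that median was -0.15.

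The median heat shock or immediate early gene was lower by a similar amount in each EV400 library, although the summed level of the list was not. Of 18 genes, 10 were wholly lower and 1 wholly higher, and EV400 1 to 3 lay at -0.37, -0.42 and -0.37, with PBS 1 to 3 at 0.01, 0.06 and -0.06. Hspa1b, an inducible HSP70 gene, was at 32.6, 34.2 and 26.5 CPM in PBS and at 16.1, 21.4 and 15.5 CPM in EV400, a difference of -0.81 (SE 0.15, adjusted p = 0.0737). Hspa1a, its near-identical copy, was at -0.67 (adjusted p = 0.0737), and reads may be split between them. Normal kidney averaged 16.8 ± 1.18 CPM of Hspa1b and EV200 31.0 ± 5.38 CPM (SD, n = 3), the first near EV400 and the second near PBS. Hspa8, the constitutive family member, was the gene wholly higher (difference 0.31, adjusted p = 0.153), at 1830, 1742 and 1903 CPM in PBS and 2050, 2277 and 2455 CPM in EV400. The summed level of the list, which includes Hspa8, was 2544, 2504 and 2543 CPM in PBS and 2592, 2906 and 3112 CPM in EV400, higher in each EV400 library.

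Proliferation genes were low in both groups and lower in EV400, by an amount that depended on the library. Over all 29 genes the median log2 difference was -0.52. Without PBS 2 that median was -0.24, and without EV400 3 it was -0.35. Of 17 genes of mitosis, 8 were wholly lower with a median of -0.86, and of 12 genes of DNA replication 4 were wholly lower and 1 wholly higher with a median of -0.14. Ccna2 (cyclin A2) was at 2.65, 5.62 and 3.06 CPM in PBS and at 1.86, 1.39 and 1.39 CPM in EV400, a difference of -1.29 (SE 0.34, adjusted p = 0.128). Cdk1 and Cenpf had differences of -1.18 and -1.56. Repair genes of platinum crosslinks were divided, with 4 of 12 wholly lower, Brca1 at -1.34 and Fancd2 at -1.20 among them, and a list median of -0.13. Of 20 p53 targets 8 were wholly lower, including Aen, a nuclease (PBS 26.2, 21.4 and 22.7 CPM, EV400 17.6, 17.97 and 19.5 CPM, difference -0.35, adjusted p = 0.127), Trp53inp1 (difference -0.47) and Zmat3 (difference -0.27).

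The urothelium and erythroid lists had the widest separation. Urothelium markers, of the epithelium that lines the renal pelvis, were wholly lower in 10 of 11, with a median of -3.04 at low levels: the summed level was 15.4, 45.3 and 32.9 CPM in PBS and 9.64, 5.45 and 4.43 CPM in EV400. Upk1a, a uroplakin, was at 2.09, 3.93 and 3.95 CPM in PBS and at 1.75, 0.974 and 0.742 CPM in EV400 (difference -1.52, adjusted p = 0.151). EV200 1 to 3 were at 4.30, 28.2 and 42.3 CPM and the normal libraries at 3.07 to 5.05 CPM. The EV200 libraries thus spanned both low and high levels under 1 treatment. Erythroid genes were wholly higher in all 6 tested of 8, with a median of 1.17. Hbb-bt, a beta globin, was at 64.3, 39.6 and 56.1 CPM in PBS and at 104, 96.4 and 168 CPM in EV400, a difference of 1.20 (SE 0.23, adjusted p = 0.0737). The globin genes have near-identical copies and are uncertain one by one. Their summed list level was 459, 286 and 412 CPM in PBS and 739, 705 and 1165 CPM in EV400, with 766 to 945 CPM in normal kidney. How far blood content or pelvic tissue moved with other results was not tested.

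**Figure D5:**
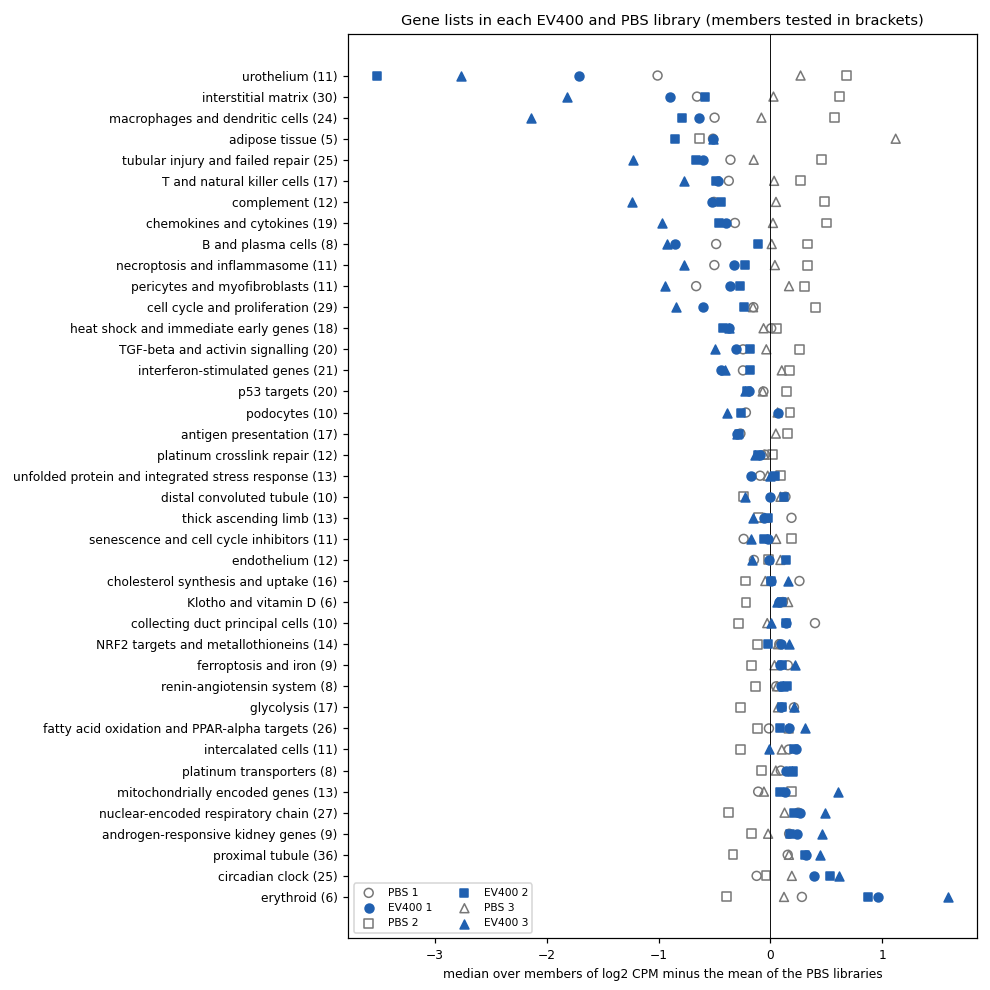
Median over the members of each gene list with at least 5 tested (rows, number tested in brackets) of log2 CPM minus the mean of the PBS libraries (horizontal axis); filled blue marks are EV400 1, 2 and 3 (circle, square, triangle) and open grey marks PBS 1, 2 and 3. EV400 3 lies furthest from PBS in the matrix list (-1.82), the macrophage list (-2.14) and the erythroid list (1.59), and PBS 2 lies opposite.

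Other nephron segments showed little. The thick ascending limb, distal convoluted tubule, collecting duct and intercalated cell lists had medians of -0.03, -0.05, 0.08 and 0.20, with 2, 1, 0 and 1 members wholly lower and 0, 0, 0 and 1 wholly higher. In intercalated cells the 2 went apart: Foxi1, their transcription factor, was at 31.2, 30.5 and 29.2 CPM in PBS and at 25.0, 22.3 and 25.3 CPM in EV400, and Atp6v1g3, a proton pump subunit, was higher (difference 0.43, adjusted p = 0.149). Podocyte and endothelial lists had medians of -0.25 and -0.01. Cholesterol synthesis, NRF2 target, Klotho and senescence lists had medians between -0.03 and 0.09. Single senescence genes differed more, from -6.06 to 0.41, with 2 of 11 wholly lower and 0 wholly higher, beside 13.8% and 12.2% of all genes. Of 9 ferroptosis and iron genes 3 were wholly higher and 0 wholly lower, with a median of 0.10. The unfolded protein response had a median of -0.05, and within it Xbp1, a transcription factor of that response, was at 92.6, 106 and 95.6 CPM in PBS and at 183, 144 and 133 CPM in EV400 (difference 0.64, adjusted p = 0.133).

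The doses were compared directly, since a call against PBS at 1 dose does not show that the doses differ. Between EV400 and EV200, 1 of 18730 genes (0.00534%) was called, a low-level pseudogene, and 1187 (6.34%) had an unadjusted p under 0.05. None of the 15 genes called against PBS was called between doses, the smallest adjusted p being 0.769. For Ren1 the difference was 0.76 (SE 0.21), for Trdn 0.85 (SE 0.24) and for Arntl -1.08 (SE 0.32), and these sizes were not distinguishable from 0 after adjustment. Both doses share the PBS libraries as controls. The EV200 libraries disagreed among themselves more than the EV400 libraries in these lists: the macrophage median relative to PBS was -1.47, -1.23 and 0.34 in EV200 1 to 3, and the tubular injury median -0.93, -0.76 and 0.55. In both lists EV200 3 lay above the PBS mean, and each EV400 library lay below it.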

How the data were processed

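Kidney RNA of 12 mouse samples in 4 groups of 3 was sequenced as paired reads of 101 bases from a strand-specific poly(A) kit, per the labels' protocols. Per the submitters' processing notes, HISAT2 2.1.0 and StringTie 2.1.3b were used with the mouse build GRCm38 (mm10), beside Trimmomatic 0.38 and FastQC 0.11.7. Which tool counted, and with what strand setting, is not given in the sources used here. Raw read counts of 45777 genes were deposited in a single table and were used unchanged. Its 24 columns of FPKM and TPM values, computed by the authors, were not used.

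Of the genes, 17340 had 0 counts in every library and 45679 matched RefSeq (GRCm38.p6), which gave the gene coordinates. Promoter starts came from a separate promoter collection. Counts of all 12 libraries entered 1 fit in edgeR 4.0.16 (R 4.3.3), with TMM factors, the default filter by group (18730 genes) and 8 residual degrees of freedom. A gene was called at a Benjamini-Hochberg adjusted p under 0.05 in the quasi-likelihood test. CPM are TMM-scaled; the log2 CPM of single libraries have a prior count of 2. "Wholly lower" or "higher" means that the 3 libraries of each group do not overlap.

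The comparison, the 43 lists (650 genes, 2 not in the table) and the panel were chosen with earlier results of these data known. Genes named were all called genes, the panel, the clock list, up to 3 members of each list with the smallest p, and per direction up to 10 with the largest change among genes with no overlap, an unadjusted p under 0.01 and a mean of at least 5 CPM in the higher group. Some genes that this rule names are not reported here. Alternatives were the size factors and the test of DESeq2 1.42.0, limma-voom with quality weights (limma 3.58.1), other filters on low counts, a minimum log2 fold change of 1, a replicate block, a fit restricted to the 6 libraries compared, the sum of Aak1 and Gm38495, and leaving out each library or PBS 3 with EV400 3. The script was tested on simulated counts. Replicate libraries differed beyond sampling noise, so none was counted as a duplicate.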

Additional observations from a re-analysis of the deposited data

Results flagged for a closer look

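The effect of the 2 doses differed in 1 gene by the direct test between them. LOC115488616, annotated as a transcribed pseudogene of a dynein light chain, had 24, 23 and 25 counts in EV400 1 to 3 and 0 counts in each EV200 library, with a fitted log2 difference of 7.79. PBS libraries had 23, 36 and 21 counts and normal libraries 20, 24 and 26. A fitted difference against a group at 0 depends on the prior count and is no bound, and the gene lies near 0.5 CPM.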

How the results depend on the processing

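The number of genes called between EV400 and PBS, 15, depended on the method. DESeq2 called 1004 and limma-voom with quality weights 2731, each including all 15, whereas a fit of the 2 groups alone called 2, a minimum log2 fold change of 1 called 0 (207 at an unadjusted p under 0.05), and summing Aak1 with Gm38495 left 6. Leaving out 1 library gave 0 to 26. The counts of 0 without EV400 1 or EV400 2 stood beside 3548 and 4850 genes at an unadjusted p under 0.05 in edgeR. The labels do not say that replicate numbers pair the samples. Deviations of same-numbered libraries correlated at -0.173, 0.246 and 0.0643, and those of differently numbered libraries at -0.327 to 0.29. With 3 libraries a group these values cannot decide whether the numbers pair samples. With the replicate block 10 genes were called, 9 of them shared with the 15. Between EV400 and EV200, where 1 gene was called, a stricter filter, the replicate block and a fit of the 2 groups called 0 (1004, 1016 and 798 at an unadjusted p under 0.05), DESeq2 17 and limma-voom 145.

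Genes wholly lower numbered 3071 to 4785 and wholly higher 3011 to 3998 when 1 library was left out, against 2588 and 2284, and 3942 and 3880 without PBS 3 and EV400 3, because fewer libraries can overlap. The proximal tubule median ranged from 0.20 to 0.42 without 1 library. The heat shock median ranged from -0.56 to -0.37 without 1 library, was -0.38 under the stricter filter and -0.40 without PBS 3 and EV400 3. Of the comparison results 121 held and 30 moved. A list median held if it shifted by no more than the SD of its medians in the EV400 libraries. That margin was wider where those libraries disagreed, as in the macrophage list. Of single-gene results 761 kept their side of the threshold, including genes called in neither setting, and 11 reversed. A further 130 lost the call and 57 gained it, and every loss fell on a called gene. In 16 other settings Fmo2 and Banp were called in 4, Ren1 and Nat8f5 in 5, and Arntl, Npas2, Cry2 and Aak1 in 9. The reversed values were these. Without 1 library, Umod ranged from -0.099 to 0.083 (0.012 without EV400 1 and 0.020 without EV400 3), Nr1d1 from -0.294 to 0.048, Tsc22d3 from -0.054 to 0.259 and Lonrf3 from -0.025 to 0.137. Without both PBS 3 and EV400 3, Umod was at 0.010, Nr1d1 at 0.181 and Tsc22d3 at -0.055. With limma-voom, Per1 was at -0.020 and Tsc22d3 at -0.049. The cause was not tested. With 3 libraries a group, small differences could not be told from the spread.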
